A study of Mus musculus with 3 samples.

Results

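Of the 3 RNA sequencing libraries of this series, 2 were compared gene by gene: iCD8a cells, sorted as CD45+CD8alpha+, and myeloid cells, sorted as CD45+CD8alpha-CD11b+. The members were therefore chosen by the sort labels and not by any expression value, and the description runs across all 37224 gene identifiers in both files, of which 35449 have a symbol. Both populations came from the intestine epithelium of mice with the genotype RAG-2 null, which the 1 further library, ILC1 (sorted as NKp46+NK1.1+), shares. CD45 is the pan-leukocyte phosphatase, CD8alpha a co-receptor chain that is found on T cells, on many intraepithelial lymphocytes and on some dendritic cells, and CD11b an integrin chain of monocytes, macrophages, granulocytes and many dendritic cells. RAG-2 is a subunit of the recombinase that assembles antigen receptor genes, so these animals have no mature T or B cells and their gut leukocytes are innate. The sources used here do not give the animals' age, how many mice stand behind a library, or whether mice were pooled.

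As background, the gut epithelium holds resident lymphocytes lodged between enterocytes, many of them carrying cytotoxic granules. The lamina propria and epithelium also hold phagocytes that sample and kill microbes. Lymphocytes of this kind signal through Src and Syk family kinases linked to short-tailed receptors, depend on interleukin 15 delivered through CD122, and kill with perforin and granzymes. Macrophages and conventional dendritic cells are set up by the transcription factor PU.1, grow under CSF1, CSF2 or FLT3 ligand, sense microbes through Toll-like and lectin receptors, and present peptides on MHC class II.

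Reads counted on genes came to 21678113 in iCD8a and 30511296 in CD11b+. Levels are given as CPM, counts scaled to the library's size after TMM, which is not corrected for gene length, so levels are compared between libraries and not between genes. Each population has 1 library. The range after a fold is therefore a 95% exact interval of counting error between 2 libraries. It holds no spread between animals, and nothing below has a replicate check. A gene was counted as apart when the fold was at least 4, the near end of that interval at least 2 and the higher of the 2 levels at least 5 CPM. Because whole populations were sequenced in bulk, fewer cells of a type and less RNA per cell cannot be told apart in any difference below.

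The gate and marker genes lay on the side of their labels, CD11b least clearly. Cd8a (ENSMUSG00000053977), which encodes CD8alpha, stood at 2636 CPM in iCD8a and 28.3 in CD11b+, a difference of 93.3-fold (87.02 to 100.2). Its partner chain Cd8b1 stood at 45.1 CPM in iCD8a and 1.42 in CD11b+. CD11b is encoded by Itgam (ENSMUSG00000030786), which was at 362 against 845 CPM, so the CD11b transcript was also present in the iCD8a library and its 2.34-fold (2.28 to 2.40) difference did not reach the rule. Ptprc, which encodes CD45, was near level at 2136 against 1795 CPM. Of the markers set for the 2 populations, Cd3g (ENSMUSG00000002033), a CD3 signalling chain, was at 2749 CPM in iCD8a and 205 in CD11b+, and Spp1 (ENSMUSG00000029304), which encodes osteopontin, at 226 CPM in iCD8a and 13.3 in CD11b+. On the myeloid side Lyz2 (ENSMUSG00000069516), the lysozyme of phagocytes, was at 6.52 CPM in iCD8a and 4844 in CD11b+, and Csf1r (ENSMUSG00000024621), the receptor of macrophage growth factor, at 1.44 CPM in iCD8a and 959.6 in CD11b+. Rag2 had 0 counts in both libraries and Rag1 had 0 and 1, which says little, because few mature leukocytes transcribe either gene.

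Other cell types were looked for in both libraries. Genes of absorptive enterocytes were more abundant in CD11b+ for 30 of 40 listed members and in iCD8a for 0 by the rule, with summed levels of 3004 and 968 CPM. The 30 are 90.9% of the 33 tested. Their iCD8a level was a median of 11.7% of the CD11b+ level (quartiles 9.90% and 14.2%), from 2.99% to 267%. Of the members, 2 had a higher level in iCD8a without passing the rule, and the sums include them. Secretory and stem cell genes of the epithelium were higher in CD11b+ for 15 of 26 and in iCD8a for 2, which is 75% and 10% of the 20 tested. The neutrophil list had 14 measured genes, of which 10 passed on the CD11b+ side (90.9% of the 11 tested) and 0 on the iCD8a side. It summed to 2303 CPM in CD11b+ and 25.1 in iCD8a. Of its 20 members 10 stand in other lists as well, such as Trem1, Clec4d and Csf3r, so the sum is not one of neutrophils alone. The granule collagenase gene Mmp8 had 23.5 CPM in CD11b+ with no count in iCD8a, Mmp9 stood at 279 and 1.18 CPM, and Retnlg at 92.9 and 0.0423 CPM. S100a8 was at 3.62 CPM in CD11b+, Mpo had 1 count there, and Ly6g and Elane were at 0 in both. Of 10 measured genes of eosinophils, mast cells and basophils 7 passed on the CD11b+ side (87.5% of the 8 tested) and 0 on the other, with sums of 496 and 160.5 CPM. The eosinophil ribonuclease gene Ear2 had 30.6 CPM in CD11b+ with no count in iCD8a, and Siglecf stood at 89.3 and 0.465 CPM, while the granule genes Epx and Prg2 had 5 and 26 counts in CD11b+ and 0 in iCD8a. The list of stroma, endothelium and red cells summed to 595 CPM in iCD8a and 218 in CD11b+, most of it Pecam1 (568 and 196 CPM), which leukocytes also express. Of its 9 measured members 2, Col1a2 and Cdh5, were higher in iCD8a and 0 in CD11b+, which is 50% and 0% of the 4 tested. The median log2 ratio of iCD8a over CD11b+ was −1.97, with 4 members above 0 and 5 below, so the list had no single direction. The part that cells of these kinds play in the differences was not tested. Ms4a1, a surface protein of B cells, had 6 counts in CD11b+ and 0 in iCD8a. The mitochondrial genome accounted for 1.60% of gene counts in iCD8a and 9.53% in CD11b+.

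Over the 10821 genes at 5 CPM or more in either library, 663 were higher in iCD8a, which is 6.13% of them, and 1447 were higher in CD11b+, which is 13.4%. A further 6792 genes (62.8%) lay within 2-fold. The 2 directions were unequal in size as well as in number. At 16-fold or more there were 31 genes on the iCD8a side and 656 on the CD11b+ side, and at 100-fold or more 0 and 285. No gene counted on the iCD8a side was at 0 in CD11b+, whereas 49 counted on the CD11b+ side were at 0 in iCD8a. The 663 genes held 14.7% of the gene counts of iCD8a and 1.44% of those of CD11b+. The 1447 genes held 30.2% of the counts of CD11b+ and 3.40% of those of iCD8a. With the epithelial lists taken out of the totals and the counts the numbers were 663 and 1407, and with the mitochondrially encoded genes taken out 596 and 1516. The TMM factors were not recomputed for these removals, so the smaller totals also shifted the ratios of all remaining genes. The numbers 596 and 1516 therefore hold a change of scale as well as the removal. A further part of epithelial RNA or of the mitochondrial share in single differences was not tested.

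**Figure D1:**
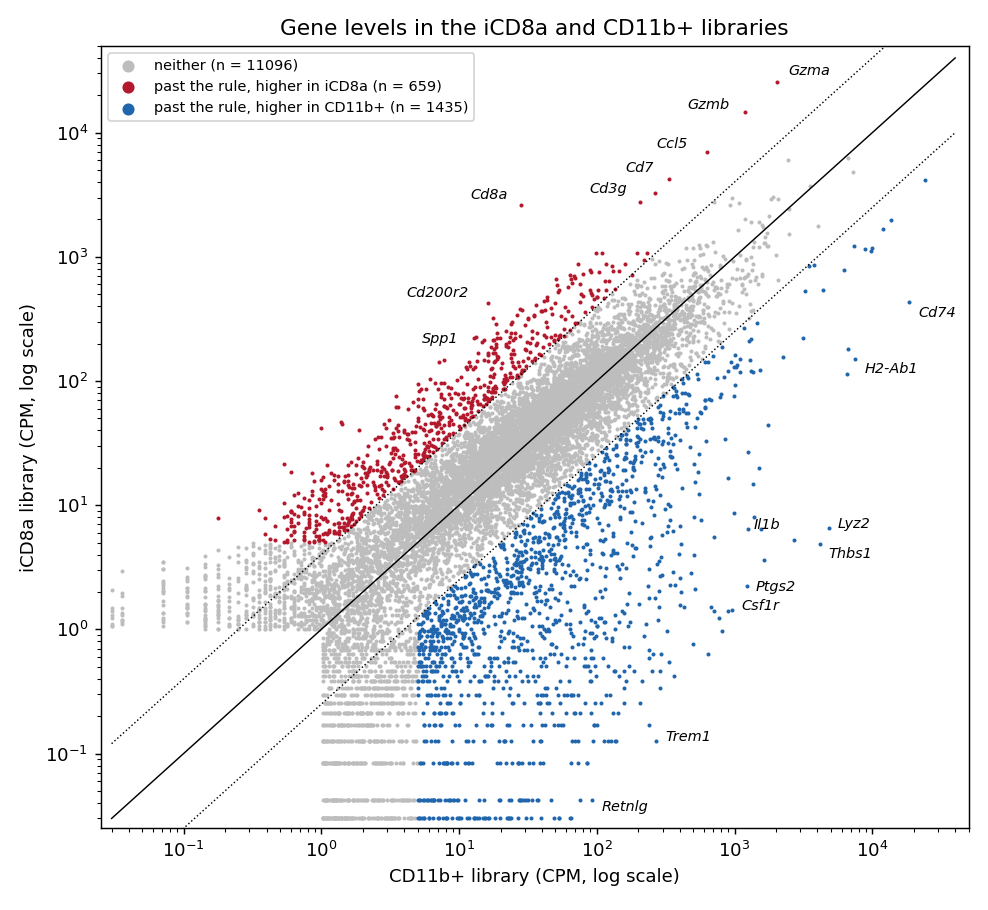
Level of each gene with a symbol and at least 1 CPM in either library (CPM on log scales, CD11b+ on x, iCD8a on y, genes at 0 drawn at 0.03); the solid line marks equal levels and the dotted lines a 4-fold difference. The 659 red genes lie in a narrow band above the upper dotted line, while the 1435 blue genes spread from the lower dotted line down to 0 in iCD8a. By the rule, no red or blue gene can lie between the dotted lines.

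Many genes high in iCD8a stood at a similar share of their level in the other library. Of the 194 counted on the iCD8a side with 100 CPM or more there, 67 (34.5%) stood in CD11b+ at 8 to 12% of their iCD8a level, with a median of 13.5% and quartiles of 9.71% and 19.7%. Gzma stood at 7.94%, Lck at 9.05%, Ets1 at 10.3% and Bcl2 at 10.3%. Only 3 of the 194 were under 5%, namely Cd8a at 1.07%, Cd200r2 at 3.77% and Tmprss6 at 4.99%. Cd8a had the lowest share of the 194, but the CD11b+ gate selects against its product, so this share was set in part by the sort. Of 397 genes on the CD11b+ side at 100 CPM or more, epithelial lists left out, the iCD8a level was a median of 7.61% of the CD11b+ level, with quartiles of 1.23% and 14.7%. The source of these lower levels was not tested.

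**Figure D2:**
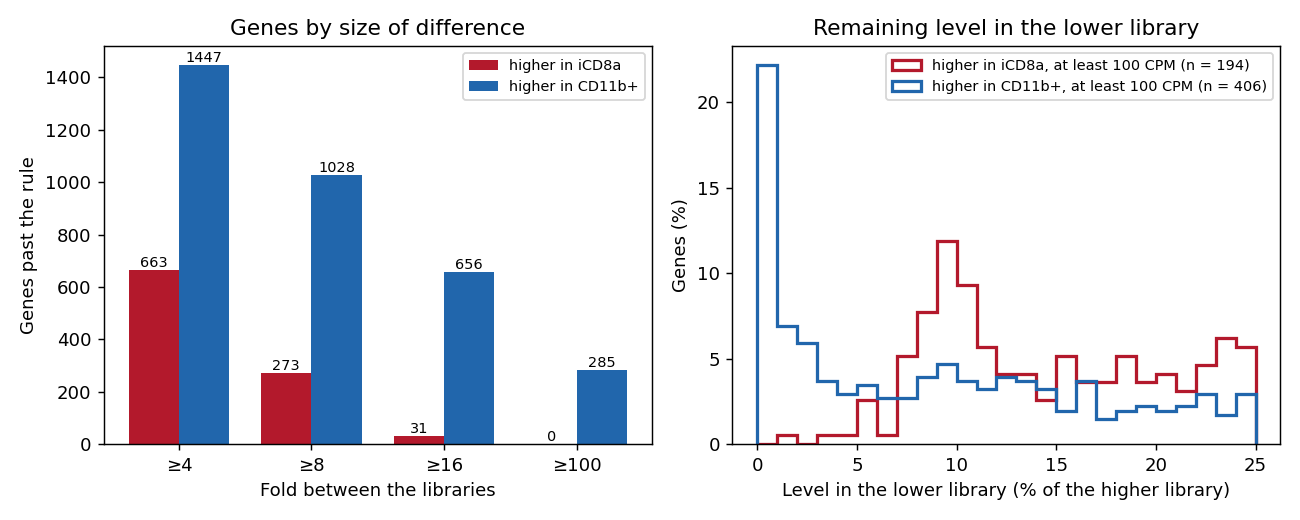
Left, genes past the rule (y, number of genes) by the fold between the libraries (x), in red those higher in iCD8a and in blue those higher in CD11b+; right, the level left in the lower library as a percentage of the higher (x) against the share of genes (y), for genes at 100 CPM or more, epithelial genes included. The red line peaks near 10% with 0 of 194 genes under 1%, and the blue line is highest under 1%, with 90 of 406 genes there. The 4-fold rule sets the upper end of both lines.

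Kinases and adaptors that work below antigen and natural killer receptors had the highest median of the lists. This list and every other list were chosen with earlier results of these data known. Their shares beside those of all tested genes are therefore description and not a test. Of 43 measured genes of antigen receptor signalling, 20 were higher in iCD8a and 3 in CD11b+. These are 47.6% and 7.14% of the 42 tested, beside 6.13% and 13.4% of all tested genes. The median log2 ratio of iCD8a over CD11b+ was 1.95, beside 0.05 over all 13321 genes at 1 CPM or more. Lck, the Src family kinase bound to CD8, stood at 709.8 CPM in iCD8a and 64.3 in CD11b+, and Zap70, which docks on phosphorylated CD3 chains, at 370.4 against 41.9 CPM, iCD8a first here and in the pairs that follow. The Tec family kinase Txk was at 341 against 34.8 CPM. The phosphatase Ptpn22, a brake on these kinases, was at 851 against 128 CPM, and the Ras activator Rasgrp1 at 264 against 58.1 CPM. Cd3e, Cd3d and Cd247 were lower in level but also apart, at 46.7 against 1.38 CPM, 21.4 against 0.532 CPM and 14.2 against 1.13 CPM. The 3 members on the opposite side are signalling genes of myeloid and B cells: the adaptors Themis2 (62.3 against 609 CPM) and Skap2 (45.7 against 220.1 CPM) and the kinase Btk (3.68 against 48.95 CPM). Fcer1g, a short adaptor chain shared by natural killer and myeloid receptors, did not reach the rule (870.3 against 331 CPM), nor did its relative Tyrobp (1102 against 726 CPM).

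Surface receptors of lymphocytes had 15 of 42 members higher in iCD8a, 7 higher in CD11b+ and a median of 0.96. Of the 35 tested these are 42.9% and 20%, beside 6.13% and 13.4% of all tested genes. Cd7, an early lymphoid surface protein, was at 4223 against 336 CPM, a difference of 12.6-fold (12.3 to 12.9). The checkpoint receptor Lag3 was at 705 against 68.4 CPM, Cd96, a receptor for nectin-like ligands, at 663 against 50.2 CPM, and Tigit, which shares such ligands, at 148 against 7.83 CPM. Both chains of the interleukin 12 receptor passed the rule, with Il12rb2 at 397 against 58.3 CPM and Il12rb1 at 146 against 18.2 CPM. The CD200 receptor family had 3 members past the rule, with Cd200r2 at 26.5-fold (24.2 to 29.2), Cd200r4 at 12.8-fold (11.9 to 13.8) and Cd200r1 at 8.33-fold (7.73 to 8.98); these genes resemble each other, and reads may be split between them. In the opposite direction lay Havcr2, which encodes TIM-3, at 7.66 against 571 CPM, Cd101 at 10.8 against 121 CPM, and Klrk1, which encodes NKG2D, at 5.20 against 37.5 CPM.

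Cytotoxic granule genes had 9 of 19 members higher in iCD8a, 1 higher in CD11b+ and a median of 1.84. Of the 18 tested these are 50% and 5.56%, beside 6.13% and 13.4% of all tested genes. The granule serine proteases Gzma and Gzmb had the largest differences in CPM of the comparison on this side, at 25743 against 2043 CPM and 14623 against 1198 CPM. The pore-forming protein Prf1 stood at 284 against 30.2 CPM, the granule membrane protein Nkg7 at 880.3 against 73.1 CPM and the lymphocyte cathepsin Ctsw at 577 against 62.00 CPM. The death ligands Fasl (224 against 19.7 CPM) and Tnfsf10, which encodes TRAIL (317 against 31.4 CPM), stood on the same side. The member higher in CD11b+ was Lyst, a regulator of lysosome size, at 28.6 against 131 CPM. Granzyme genes are close copies of each other and their single levels are uncertain, since HTSeq set aside reads with more than 1 alignment.

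For cytokine receptors of the common gamma chain group, 2 of 19 passed on the iCD8a side and 1 on the CD11b+ side. Of the 18 tested these are 11.1% and 5.56%, beside 6.13% and 13.4% of all tested genes. Il2rb, which encodes CD122, the chain that takes up interleukins 2 and 15, was at 3288 CPM in iCD8a and 264 in CD11b+ (2825 in ILC1), and Il21r at 759 against 103 CPM. The shared chain Il2rg did not pass (219 against 133 CPM), and Il7r was level (22.9 against 23.2 CPM). Socs3, a feedback inhibitor of cytokine receptors, was the member higher in CD11b+ (32.8 against 302 CPM). Survival genes of the BCL2 family showed 1 gene on the iCD8a side, Bcl2 itself, at 676 CPM in iCD8a and 69.6 in CD11b+, a difference of 9.72-fold (9.28 to 10.2). Of 28 members 1, Bcl2, was higher in iCD8a and 5 were higher in CD11b+ (17.9%, beside 13.4% of all tested genes), including the BH3-only gene Pmaip1 (33.3 against 399 CPM), while Mcl1 (368 against 1318 CPM) and Bcl2l11 (489.9 against 223 CPM) lay short of the rule.

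Of 34 lymphoid transcription factors 9 were higher in iCD8a and 5 in CD11b+ (median 0.45). These are 29.0% and 16.1% of the 31 tested, so the CD11b+ side is near the 13.4% over all tested genes and the iCD8a side above its 6.13%. Ets1, an ETS factor of lymphocytes, was at 1066 against 109 CPM, Ikzf3, which encodes Aiolos, at 544 against 89.3 CPM, and Foxo1 at 349 against 47.2 CPM. Tox (126 against 11.4 CPM), Gfi1 (102 against 9.61 CPM), Gata3 (45.6 against 6.52 CPM) and Tbx21, which encodes T-bet (108 against 24.2 CPM), also passed. Bcl11b, a factor of the T lineage, passed at a low level (17.2 against 3.79 CPM). Runx1 (52.2 against 303 CPM) and Id3 (2.75 against 63.4 CPM) were higher in CD11b+, and Id2 (237 against 173 CPM) and Runx3 (316 against 436 CPM) were within the rule.

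Genes of homing to and residence in the epithelium divided between the libraries, with 5 of 25 higher in iCD8a and 8 in CD11b+. Of the 24 tested these are 20.8% and 33.3%, beside 6.13% and 13.4% of all tested genes. Itga1, the collagen-binding chain CD49a, was at 525 against 52.7 CPM, and the gut homing receptor Ccr9 at 205 against 31.02 CPM. The chemokine receptors Cxcr6 (189 against 22.6 CPM) and Cxcr3 (17.1 against 1.49 CPM) passed too. Itgae, the chain CD103 that binds E-cadherin, was high in both, at 2989.7 CPM in iCD8a and 959.9 in CD11b+ (3.07 to 3.16-fold), under the rule. Integrin chains of this list on the other side included Itga4 at 60.6 against 615 CPM and Itgal, which encodes CD11a, at 55.6 against 395 CPM. Among integrin chains as a group, 4 of 22 were higher in iCD8a, also Itgad (130.2 against 11.2 CPM), a CD11 family chain, Itgb3 (82.01 against 17.1 CPM) and Itga2 (28.7 against 3.33 CPM). The 7 on the CD11b+ side included the fibronectin receptor chain Itga5 (3.89 against 182 CPM) and Itgb5 (0.592 against 110.2 CPM). Of the 20 integrin chains tested, the 4 are 20% and the 7 are 35%, beside 6.13% and 13.4% of all tested genes. The transcription factor Klf2, which drives exit from tissue, stood at 13.9 against 102 CPM.

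In the purinergic, TGF-beta and Notch lists 2 members each passed on the iCD8a side, of 20, 32 and 22 measured, and 4, 8 and 4 on the CD11b+ side (22.2%, 29.6% and 18.2% of the tested members, beside 13.4% of all tested genes). The iCD8a counts lie within 1 member of what the 6.13% over all tested genes would give, as they do for the gamma chain and BCL2 lists, so only single members are described. In the purinergic list Nt5e, the ectoenzyme CD73 that makes adenosine, stood at 409.8 CPM in iCD8a and 36.3 in CD11b+, a difference of 11.3-fold (10.6 to 12.1), and the lysophospholipid receptor P2ry10 at 1067 against 196 CPM. Entpd1, or CD39, which acts before CD73, was level at 185 against 199 CPM, and the adenosine receptor Adora2b was higher in CD11b+ (2.96 against 49.1 CPM). In the TGF-beta list Tgfb3 was at 375 CPM in iCD8a and 28.6 in CD11b+ (13.1-fold, 12.2 to 14.1) and the activin receptor Acvr2a at 97.6 against 21.6 CPM. Tgfb1, by contrast, was at 292 against 838 CPM, under the rule, and the secreted TGF-beta target Tgfbi at 1.52 against 672 CPM, 441-fold (319 to 630.4) higher in CD11b+. Nrros and Lrrc32, which anchor latent TGF-beta on the cell surface, were also higher in CD11b+, at 31.9 against 192 CPM and 0.169 against 29.3 CPM.

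In the Notch list Dtx1, a ubiquitin ligase and target of Notch, was at 614 CPM in iCD8a and 66.1 in CD11b+ (9.29-fold, 8.85 to 9.75), and Notch3 at 10.4 against 0.993 CPM. Heyl, another target gene, was named by the size of its difference, at 86.96 against 5.71 CPM (15.2-fold, 12.97 to 18.00). Hes1, the widely used Notch target, lay the other way, at 0.339 against 42.3 CPM (125-fold, 63.1 to 289.8), as did the ligands Jag1 (0.846 against 8.15 CPM) and Jag2 (3.89 against 39.2 CPM). Notch1 itself was level (108 against 114 CPM). Of the TNF receptor superfamily, Tnfrsf9, which encodes 4-1BB, was at 324 against 17.7 CPM, and Cd27 at 38.9 against 4.57 CPM, whereas the antigen-presenting cell receptor Cd40 (1.10 against 59.4 CPM) and Ltbr (16.8 against 83.9 CPM) were among the 7 of 25 members higher in CD11b+. Tnfrsf9 and Cd27 were the 2 higher in iCD8a, 10% of the 20 tested, beside 6.13% of all tested genes. The 7 are 35.0%, beside 13.4%.

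Further genes with the largest near bounds on the iCD8a side came from different families. Tmprss6, a membrane serine protease, stood at 143 against 7.12 CPM, and Glp1r, the receptor of the incretin hormone GLP-1, at 94.4 against 5.07 CPM. Mcam, an adhesion protein of the immunoglobulin family, was at 379 against 27.8 CPM, and Itih5, a hyaluronan-associated secreted protein, at 286 against 18.5 CPM. Zmat4, Arfgef3, Adam11, Cela1, Slc26a10 and Cables1 stood at 215, 85.6, 72.1, 95.8, 67.5 and 242 CPM in iCD8a, from 12.8-fold (Cables1) to 16.2-fold (Arfgef3) above CD11b+. Klrb1a, Klrb1c and Klra5, natural killer receptor genes, were at 103 against 6.13 CPM, 207 against 14.7 CPM and 62.1 against 3.51 CPM; the Klra genes are near-identical copies with uncertain single levels. Gimap4, a lymphocyte GTPase, and Ccl5, a chemokine stored by effector lymphocytes, were at 1079 against 97.97 CPM and 7002 against 632 CPM.

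**Figure D3:**
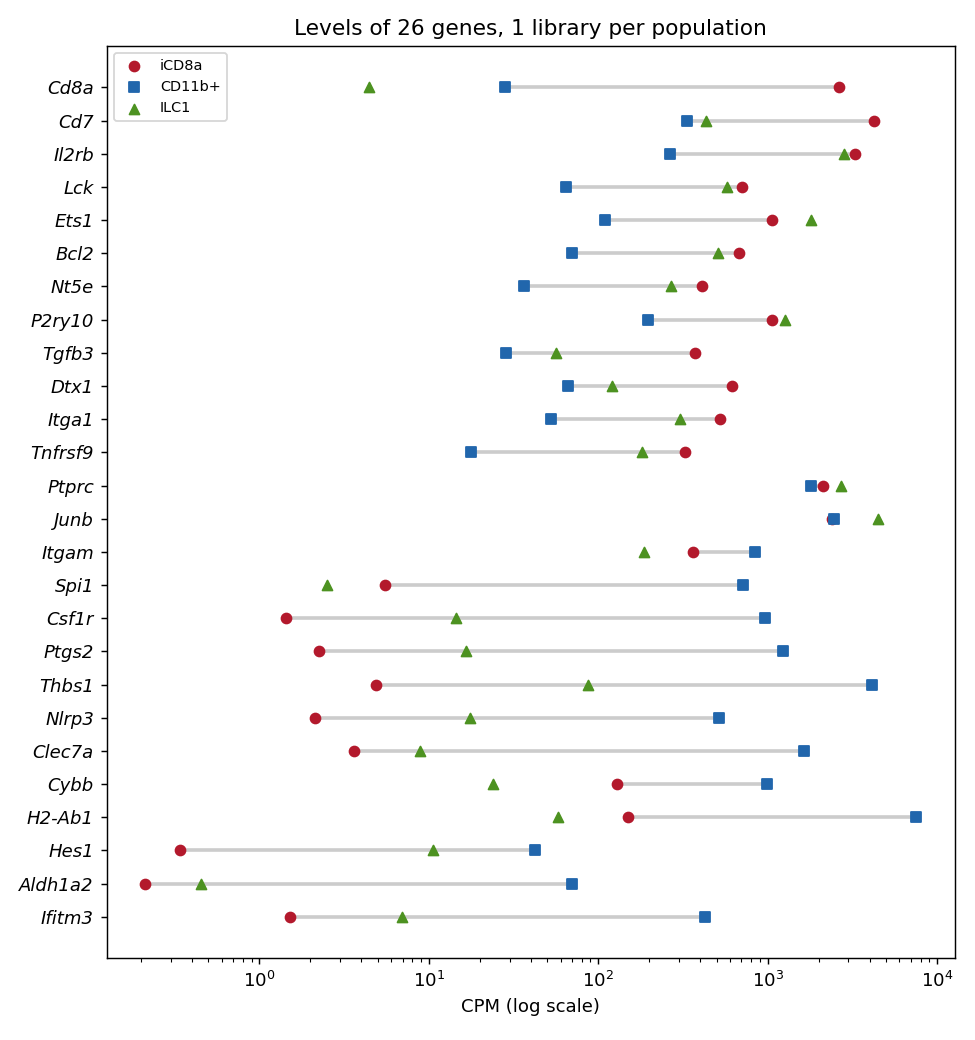
Levels of 26 named genes (x, CPM on a log scale) in the iCD8a (circle), CD11b+ (square) and ILC1 (triangle) libraries, 1 library each, with a grey line joining iCD8a and CD11b+. Cd8a to Tnfrsf9 lie higher in iCD8a, Ptprc and Junb are near level, and from Itgam down CD11b+ is higher.

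On the CD11b+ side the transcription factors of myeloid cells were apart for 27 of 46 members, with 1 higher in iCD8a and a median of −2.34. Of the 45 tested these are 60% and 2.22%, beside 13.4% and 6.13% of all tested genes. Spi1, which encodes PU.1, stood at 5.54 CPM in iCD8a and 715 in CD11b+, a difference of 129-fold (109 to 154). Cebpa was at 5.25 against 57.8 CPM, Cebpb at 142 against 642 CPM and Irf5 at 29.6 against 478 CPM. Irf8, needed by several dendritic cell and monocyte lineages, did not pass and was at 469.6 against 239 CPM, and the 1 member higher in iCD8a was Spib (94.7 against 11.4 CPM), a relative of PU.1 used by B cells and plasmacytoid dendritic cells.

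Of 49 monocyte and macrophage genes 43 passed on the CD11b+ side and 0 on the iCD8a side, with a median of −7.43, the lowest of the lists. The 43 are 89.6% of the 48 tested, beside 13.4% of all tested genes. Csf2rb and Csf2ra, the receptor chains for GM-CSF, were at 44.6 against 1742 CPM and 16.5 against 898 CPM. Apoe, a lipid carrier made by macrophages, was at 7.998 against 1383 CPM, Fn1, which encodes fibronectin, at 1.40 against 896 CPM, Cd14, the co-receptor for lipopolysaccharide, at 1.40 against 709 CPM, and Adgre1, which encodes F4/80, at 0.465 against 288 CPM. The resident macrophage genes Mrc1 (0.127 against 38.8 CPM) and Timd4 (23.2 CPM in CD11b+, 0 counts in iCD8a) also passed. Emilin2, an extracellular matrix protein, had a difference of 1019-fold (617 to 1820.4), and Chil3, a chitinase-like protein, of 816-fold (375 to 2226). Retnla, a secreted protein of alternatively activated macrophages, had 0 counts in iCD8a and 65.2 CPM in CD11b+. That level is 513 times a floor of 3 counts, and the lower end of the fold's interval is 417.

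Presentation on MHC class II was apart in 15 of 16 members, none the other way, with a median of −5.51. The 15 are 93.8% of the 16 tested, beside 13.4% of all tested genes. The structural genes H2-Ab1, H2-Aa and H2-Eb1 stood at 151 against 7529 CPM, 182 against 6661 CPM and, for the third, 114 against 6521 CPM. Cd74, their invariant chain, was at 430.3 against 18551 CPM, the peptide-loading chain H2-DMa at 42.99 against 454 CPM, and Ciita, the master activator of these genes, at 6.86 against 329.9 CPM. Presentation on MHC class I was close to level, with 0 of 22 higher in iCD8a, 1 in CD11b+ and a median of 0.10. These are 0% and 4.55% of the 22 tested, beside 6.13% and 13.4% of all tested genes. H2-K1 and B2m were at 3048 against 1917 CPM and 2912 against 1828 CPM, and the peptide transporter Tap1 at 184 against 256 CPM.

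The dendritic cell list had 26 of 44 members past the rule on the CD11b+ side and 6 on the iCD8a side. Of the 43 tested these are 60.5% and 14%, beside 13.4% and 6.13% of all tested genes. On the CD11b+ side were Cd83 and Cd86, which mark maturation (19.9 against 1501 CPM and 2.67 against 286 CPM), the growth factor receptor Flt3 (35.1 against 279.7 CPM), Wdfy4 (26.7 against 1249.8 CPM), Sirpa (32.9 against 623 CPM) and Zbtb46 (3.05 against 49.2 CPM). The members higher in iCD8a were Siglech (224 against 12.9 CPM), Spib (94.7 against 11.4 CPM), Ly6d (75.7 against 3.51 CPM), Klk1 (27.7 against 3.33 CPM), Ccr9 (205 against 31.02 CPM) and Clec9a (21.9 against 3.97 CPM). Siglech, Spib, Ly6d, Klk1 and Ccr9 are known from plasmacytoid dendritic cells, and Clec9a from the CD8alpha-bearing conventional subset. Tcf4, the transcription factor of the plasmacytoid lineage, was at 142 against 48.2 CPM and Tlr9 at 11.3 against 22.4 CPM, both short of the rule, and Xcr1, a chemokine receptor of the CD8alpha-bearing subset, was low in both (2.33 against 3.47 CPM). Some B lineage genes also stood higher in iCD8a, namely Cd79b (24.6 against 5.60 CPM), Fcrla (23.9 against 1.84 CPM) and Mzb1 (7.28 against 0.603 CPM), 3 of 12 measured, and 3 stood higher in CD11b+, namely Cd22 (2.29 against 46.3 CPM), Sdc1 (2.24 against 23.7 CPM) and Bank1 (0.381 against 19.2 CPM). Which cells in either gate carried these transcripts was not tested.

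In 3 lists of innate recognition genes more members were counted on the CD11b+ side. Of 41 pattern recognition genes 21 passed on that side (52.5% of the 40 tested, beside 13.4% of all tested genes) and 0 on the other. Nlrp3, the inflammasome sensor, stood at 2.12 CPM in iCD8a and 515 in CD11b+ and Mefv, which encodes pyrin, at 0.339 against 286 CPM. Toll-like receptors differed among themselves: Tlr2 was at 3.13 against 163 CPM, Tlr13, a sensor of bacterial ribosomal RNA, at 0.127 against 119.9 CPM and Tlr4 at 0.0423 against 10.99 CPM, while Tlr7 was at 35.7 against 48.7 CPM and not counted. C-type lectins and Siglecs had 19 of 30 members on the CD11b+ side and 3 on the iCD8a side (65.5% and 10.3% of the 29 tested), with the beta-glucan receptor Clec7a at 3.64 against 1629 CPM and Clec4e, which encodes Mincle, at 0.677 against 238 CPM. Of 29 paired receptors 21 were higher in CD11b+ (75% of the 28 tested) and 2, Cd200r1 and Cd200r4, in iCD8a (7.14%, beside 6.13% of all tested genes). In that list were Trem1, an amplifier of myeloid inflammation, at 0.127 against 270.5 CPM on 3 counts in iCD8a (729 to 10333-fold) and Pilra at 0.55 against 336 CPM (610.3-fold, 357 to 1147).

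In both the phagocyte killing list and the lysosome list, members were counted on the CD11b+ side or not at all. The phagocyte oxidase list had 10 of 22 members higher in CD11b+, with the oxidase subunit Cybb (129 against 988 CPM) and the metal transporter Slc11a1 (5.46 against 243 CPM). The 10 are 55.6% of the 18 tested, beside 13.4% of all tested genes. Lysosomal genes passed on the CD11b+ side for 15 of 47 (31.9%, beside 13.4% of all tested genes) and on the iCD8a side for 0, with a median of −1.13. Psap, which encodes saposins, was at 1223 against 7330.3 CPM, Ctss, the cathepsin that trims the invariant chain, at 120.0 against 1327 CPM, and Lgmn, which encodes legumain, at 8.04 against 509 CPM. Ctsl (99.3 against 104 CPM) and the Fc receptor Fcgr3 (182 against 208 CPM) were near level.

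More secreted mediators were counted on the CD11b+ side. Of 41 cytokine and growth factor genes 23 were higher there, led by Il1b (5.25 against 2694 CPM, 513-fold, 431 to 617) and followed by the interleukin 1 antagonist Il1rn (0.635 against 254 CPM), Il1a (0.592 against 239 CPM), oncostatin M or Osm (0.423 against 145 CPM) and Vegfa (56.8 against 286 CPM). Il10 (0.973 against 10.03 CPM), Il12b (0.254 against 8.19 CPM), Il23a (0.0846 against 11.02 CPM) and Il6 (0.0423 against 15.1 CPM) passed at lower levels, and Tgfb3 and Spp1 were the 2 members higher in iCD8a. Of the 33 tested, these 2 are 6.06% and the 23 are 69.7%, beside 6.13% and 13.4% of all tested genes. The iCD8a count is thus near the share over all tested genes. Chemokines and receptors had 18 of 37 on the CD11b+ side and 4 on the iCD8a side, with a median of −5.02, or −3.94 when members at 0 are set to 3 counts. Ccl22, which draws regulatory T cells, was at 1.23 against 771 CPM, the neutrophil attractant Cxcl2 at 0.973 against 325 CPM, and Cxcl16, the ligand of Cxcr6, at 2.84 against 485 CPM. The receptors Ccr7, used for migration to lymph nodes, and Ccr2, used by monocytes, were at 7.57 against 343 CPM and 10.2 against 331 CPM. Ccl5, Ccr9, Cxcr3 and Cxcr6 were the 4 members on the iCD8a side. Of the 29 tested members of this list, the 4 are 13.8% and the 18 are 62.1%.

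Lipid mediators, coagulation and retinoid metabolism also had more members on that side. In the eicosanoid list 14 of 27 were higher in CD11b+ (median −3.57, −3.86 with members at 0 set to 3 counts). The 14 are 58.3% of the 24 tested, beside 13.4% of all tested genes, and 1 member (4.17%, beside 6.13%) was higher in iCD8a. Ptgs2, the inducible cyclooxygenase, stood at 2.24 CPM in iCD8a and 1233 in CD11b+, a difference of 549.7-fold (420.1 to 734), and Pla2g7, which breaks down platelet-activating factor, at 0.762 against 498 CPM. Alox5ap, which feeds 5-lipoxygenase, was at 24.4 against 354 CPM, whereas Lta4h, a later enzyme of leukotriene synthesis, was at 417 against 307 CPM and not counted, and the receptor Cysltr2 was higher in iCD8a (74.1 against 15.4 CPM). Of 38 complement and coagulation genes 25 were higher in CD11b+ (median −4.74, −4.48 with members at 0 set to 3 counts). Thbs1, which encodes thrombospondin 1, was at 4.91 against 4145 CPM (844-fold, 704 to 1022), and C3, C1qa, F13a1 and F5 were at 0.381 against 213 CPM, 0.465 against 185 CPM, 0.465 against 252 CPM and 0.212 against 90.4 CPM. The protease-activated receptors F2r (169 against 18.3 CPM) and F2rl1 (18.7 against 3.62 CPM), which respond to thrombin and to tryptic proteases, were the 2 higher in iCD8a. They are 6.45% of the 31 tested, near the 6.13% of all tested genes, and the 25 are 80.6%, beside 13.4%. In the retinoid list 6 of 14 measured members were higher in CD11b+ (54.5% of the 11 tested) and 0 passed the other way, with Aldh1a2, which makes retinoic acid, at 0.212 against 69.6 CPM (329-fold, 141 to 1014) and the receptor Rara at 14.9 against 101 CPM.

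The stimulus-induced genes past the rule were all on the CD11b+ side in both lists that hold them. These were 37.8% of the tested immediate early genes and 46.7% of the tested NF-kappaB feedback genes, beside 13.4% of all tested genes. The iCD8a side held 0% of either list, beside 6.13%. Of 37 immediate early genes 14 were on the CD11b+ side and 0 on the iCD8a side (median −1.23), among them Zfp36, which destabilises cytokine transcripts (156 against 2253 CPM), Nr4a1 (150.3 against 1088 CPM), Fosb (147 against 1299 CPM) and Atf3 (18.5 against 540.4 CPM). Junb (2409 against 2476 CPM) and Jund (558 against 571 CPM) were level, and Fos (355 against 1025 CPM) was under the rule. Of 30 feedback genes of the NF-kappaB pathway 14 were higher in CD11b+, such as Nfkbia (107 against 842 CPM) and Nfkbiz (55.01 against 575 CPM), while Tnfaip3, which encodes A20, was at 2002 against 1183 CPM and not counted. These genes also respond to handling of tissue, and how far cell preparation bears on them was not tested. Without the immediate early list, the numbers of genes apart were 663 and 1445, an alternative chosen after the data had been seen.

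More interferon-stimulated genes were counted on the CD11b+ side. Of 52 measured, 17 were higher in CD11b+ and 2 in iCD8a (median −0.88), which is 34% and 4% of the 50 tested, beside 13.4% and 6.13% of all tested genes. The membrane antiviral genes Ifitm3 (1.52 against 427 CPM) and Ifitm2 (2.03 against 283 CPM) and the oligoadenylate synthetases Oas2 (0.592 against 67.8 CPM) and Oas3 (3.77 against 54.2 CPM) were on the CD11b+ side. The immunity-related GTPases Irgm2 (164 against 25.2 CPM) and Igtp (109 against 26.8 CPM) were the 2 on the iCD8a side. Irf7 (123 against 154 CPM) was near level.

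Core metabolism showed a narrow part and an uneven part. Of 76 ribosomal protein genes and 52 nuclear genes of oxidative phosphorylation 0 passed the rule in either direction, with medians of −0.34 and −0.12, the second of which was 0.12 without a scaling factor. All 14 measured mitochondrially encoded genes were higher in CD11b+, with a median of −2.97, and mt-Co1, a cytochrome oxidase subunit, was at 4137 against 24298 CPM. The nuclear and the mitochondrial subunits of the respiratory chain thus had different ratios. Of 31 genes of glycolysis and the pentose phosphate pathway 11 were higher in CD11b+ and 0 in iCD8a, including the lactate exporter Slc16a3 (31.3 against 355 CPM), the glucose transporters Slc2a1 (34.3 against 162 CPM) and Slc2a6 (12.99 against 225 CPM), the hexokinases Hk2 (31.3 against 164 CPM) and Hk3 (1.14 against 75.9 CPM), and Pfkfb3 (10.8 against 126 CPM), which raises glycolytic flux. Hk1 was at 203 against 71.5 CPM and Gapdh at 183 against 389 CPM, both under the rule. The 11 glycolysis and pentose phosphate genes higher in CD11b+ are 35.5% of the 31 tested. The cholesterol and lipid list was evenly split, with a median of 0.0083 and 19 measured members above 0 and 19 below. Past the rule were 11 of 38 in CD11b+ (28.9% of the 38 tested) and 1 in iCD8a (2.63%). Among the 11 were the desaturase Scd1 (1 count in iCD8a and 19.7 CPM in CD11b+), the acyltransferase Lpcat2 (0.254 against 158 CPM), the lipid droplet protein Plin2 (35.00 against 257 CPM) and the scavenger receptor Cd36 (1.40 against 85.8 CPM). The 1 was Lss, a cholesterol synthesis enzyme (122 against 28.9 CPM).

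Few proliferation genes were apart. Of 51 cell cycle genes 1 passed on the CD11b+ side and 0 on the iCD8a side, with a median of −0.24, which was 0.00078 without a scaling factor. These are 2.17% and 0% of the 46 tested, beside 13.4% and 6.13% of all tested genes. That 1 gene, Cdkn1a, encodes the inhibitor p21 and stood at 13.8 against 414 CPM. Mki67 was at 59.1 against 94.7 CPM and Top2a at 75.6 against 66.8 CPM. Among near-level genes outside the ribosomal, oxidative phosphorylation and glycolysis lists, ranked by the lower of their levels in both libraries, the first 10 differed by up to 1.19-fold (Ptprc) and were Junb, Ptprc, Tnfrsf1b (829 against 802 CPM), the chaperone Calr (832 against 786 CPM), Pdia3 (663 against 614 CPM), Rgs2 (670.2 against 572 CPM), Dusp5 (589 against 561 CPM), Jund, Tapbp (534 against 463 CPM) and Klf6 (451 against 496 CPM). Without a scaling factor Junb, Jund and Klf6 stood on the other side of equal levels.

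**Figure D4:**
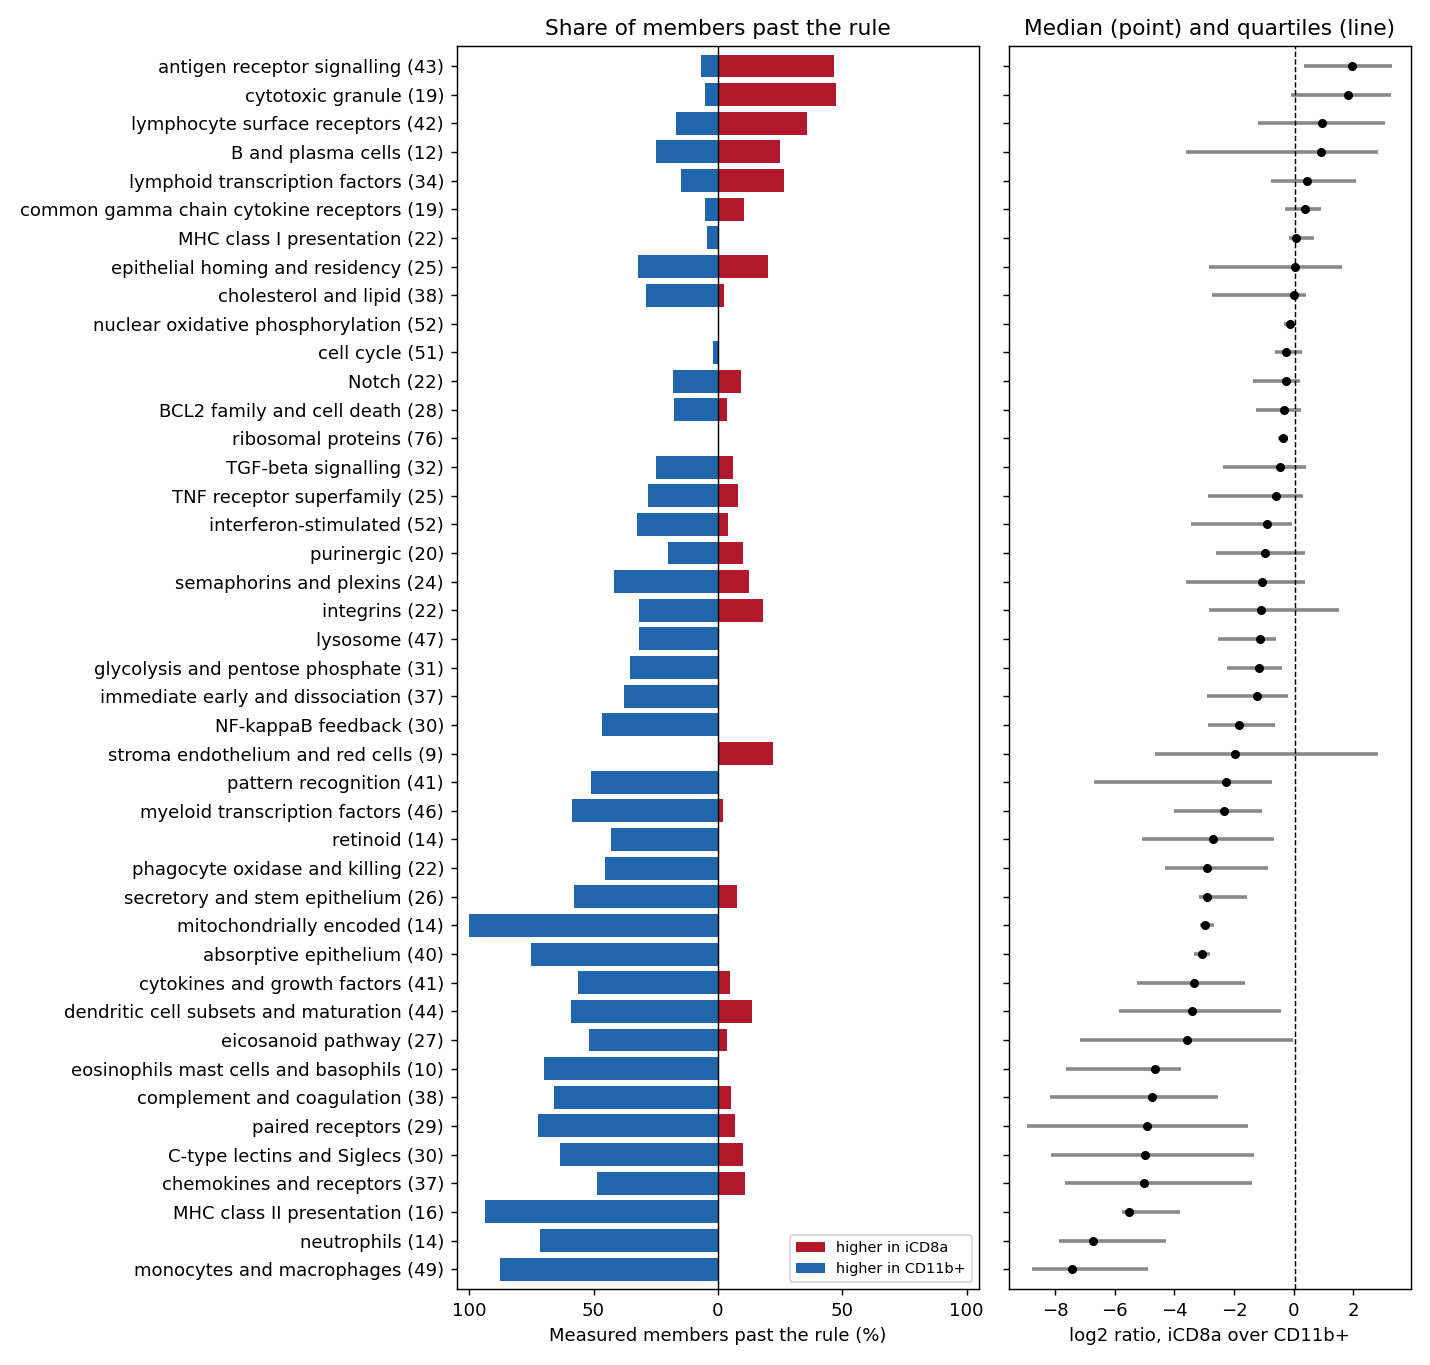
Left, percentage of the measured members (number in brackets) of 43 gene lists past the rule, red to the right for higher in iCD8a and blue to the left for higher in CD11b+; right, the median (point) and quartiles (line) of the members' log2 ratio of iCD8a over CD11b+, with the dashed line at the median of all genes. Antigen receptor signalling has the highest median at 1.95 and monocytes and macrophages the lowest at −7.43, while ribosomal protein and nuclear oxidative phosphorylation genes lie close to the dashed line.

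Families taken by the start of the symbol gave a further view. Of 188 tested Slc transporters 9 were higher in iCD8a (4.79%) and 37 in CD11b+ (19.7%). The first share lies below the 6.13% of all tested genes and the second above the 13.4%. The nucleoside transporter Slc28a2 (275 against 43.7 CPM) had the highest level of the 9, and the peptide and histidine transporter Slc15a3 (12.3 against 554 CPM) of the 37, which also held the cystine exchanger Slc7a11 (0.846 against 80.5 CPM) and the iron exporter Slc40a1 (0.339 against 20.9 CPM). Of 38 G protein-coupled and adhesion receptors named Gpr or Adgr, 7 were higher in iCD8a (18.4%), with Gpr34 (224 against 25.5 CPM), Adgrl2 (61.02 against 8.12 CPM) and Adgrg1 (38.97 against 4.82 CPM) among them, and 15 in CD11b+ (39.5%), with Gpr141 (0.127 against 114 CPM) and Adgre4 (0.212 against 144 CPM). Of 12 potassium channel genes 2, Kcng3 (17.3 against 2.66 CPM) and Kcnh2 (7.70 against 1.03 CPM), were higher in iCD8a (16.7%) and 7 in CD11b+ (58.3%), beside 6.13% and 13.4% of all tested genes. Among the 7 was Kcnj10, with 0 counts in iCD8a and 23.9 CPM in CD11b+ (188 times a floor of 3 counts, lower end of the fold's interval 152). Zinc finger genes named Zfp had a median log2 ratio of 0.82, beside 0.08 over all tested genes, with 13 of 227 higher in iCD8a (5.73%) and 8 in CD11b+ (3.52%). Both shares of the Zfp genes lie below those over all tested genes.

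The promoter windows of the protein-coding genes were searched for short letter strings known from binding sites of lymphoid and myeloid factors. Windows of 250 bases before to 50 after the gene start came from RefSeq (GRCm38.p6) and were found for 448 of the 601 protein-coding genes higher in iCD8a, 1064 of the 1384 higher in CD11b+ and 8429 of the 10509 tested. A gene counted when any of its windows held the string on either strand. The string GAGGAAGT, a core bound by PU.1, occurred for 3.35% of iCD8a-side genes, 7.05% of CD11b+-side genes and 4.14% of tested genes, beside 3.20% of all 32851 windows. TGTGGT, a core bound by RUNX factors, occurred for 24.3%, 21.6% and 15.5%, beside 16.8% of all windows. TGACTCA, which AP-1 binds, occurred for 5.13%, 9.87% and 4.75%, beside 5.20%. GGAATTTCC, a form of the NF-kappaB site, occurred for 0.446%, 0.846% and 0.463%, beside 0.317%. TATAAA, the core of the TATA box, occurred for 8.26%, 15.9% and 8.59%, beside 13.6%. These shares describe letters in a window, since a match is not a binding site.

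Among the genes named by the size of their interval's near bound, the windows with the match nearest to the gene start are shown so that the place of the letters can be seen, with matches in capitals (TGTGGT or its reverse complement for the 3 genes higher in iCD8a, GAGGAAGT or its reverse complement for the gene higher in CD11b+). They belong to Tnfrsf9 (chr4:150927749-150928048, plus strand), Cd96 (chr16:46120199-46120498, minus strand), Gzmb (chr14:56262285-56262584, minus strand) and Retnla (chr16:48842359-48842658, plus strand), and each is written 5′ to 3′ in the direction of the gene.
Tnfrsf9: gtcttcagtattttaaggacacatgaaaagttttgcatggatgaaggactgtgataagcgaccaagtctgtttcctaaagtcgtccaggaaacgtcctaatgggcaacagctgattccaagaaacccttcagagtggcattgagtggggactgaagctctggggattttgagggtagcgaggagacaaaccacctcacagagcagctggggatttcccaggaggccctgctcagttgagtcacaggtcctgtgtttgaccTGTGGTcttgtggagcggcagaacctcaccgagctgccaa
Cd96: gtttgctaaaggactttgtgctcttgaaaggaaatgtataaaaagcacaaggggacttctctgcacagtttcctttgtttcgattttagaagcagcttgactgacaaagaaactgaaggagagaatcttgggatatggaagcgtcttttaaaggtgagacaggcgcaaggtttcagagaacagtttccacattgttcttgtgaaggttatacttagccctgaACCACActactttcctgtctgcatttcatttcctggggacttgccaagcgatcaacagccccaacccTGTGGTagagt
Gzmb: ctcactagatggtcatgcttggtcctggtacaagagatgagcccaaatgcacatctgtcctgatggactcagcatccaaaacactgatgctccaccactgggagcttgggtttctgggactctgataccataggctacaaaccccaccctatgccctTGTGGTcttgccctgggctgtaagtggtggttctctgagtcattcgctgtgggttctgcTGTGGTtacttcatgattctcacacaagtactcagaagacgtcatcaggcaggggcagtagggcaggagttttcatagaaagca
Retnla: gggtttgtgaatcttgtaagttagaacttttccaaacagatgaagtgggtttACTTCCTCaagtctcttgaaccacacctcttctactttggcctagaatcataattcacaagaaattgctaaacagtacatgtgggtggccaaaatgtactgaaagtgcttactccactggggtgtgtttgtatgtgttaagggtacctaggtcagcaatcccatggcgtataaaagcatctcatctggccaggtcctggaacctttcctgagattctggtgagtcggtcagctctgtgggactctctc
Cd96 and Gzmb hold 2 matches each and the other windows 1. The match in Retnla begins at −198 from the gene start. Among the named CD11b+ genes whose windows were searched for printing, only Retnla held a match. The choice of printed windows did not cover every chromosome. The levels of these genes were 324 against 17.7 CPM for Tnfrsf9, 663 against 50.2 CPM for Cd96, 14623 against 1198 CPM for Gzmb and 0 against 65.2 CPM for Retnla.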

How the data were processed

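Each library has 1 deposited file of raw counts by Ensembl identifier, which the authors did not normalize. Per the series' design text, the authors aligned reads with TopHat and counted them with HTSeq, and the submitters' processing notes name TopHat2 and CASAVA 1.9. Neither the genome build nor the annotation nor the strand setting is given in the sources used here. Reads of overlapping or antisense genes therefore cannot be told apart, and the coordinates printed are those of the RefSeq windows alone. The FPKM values named in the design text were not used. The 5 rows that name no gene were dropped: non-unique alignments were 26.9% of all counts in iCD8a and 30.5% in CD11b+, reads in no gene 9.31% and 8.56%, and ambiguous reads 1.08% and 0.922%.

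Scaling used TMM over the 3 libraries, with factors of 1.09 (iCD8a) and 0.925 (CD11b+) from edgeR 4.0.16 under R 4.3.3. A single library per population leaves no residual degrees of freedom. No p-value was computed, and edgeR and DESeq2 1.42.0 served for scaling factors only. Folds are ratios of scaled counts, and their 95% intervals are exact Clopper-Pearson intervals conditional on the gene's total (scipy 1.17.1, numpy 2.4.6, pandas 2.3.3, Python 3.11.15; figures with matplotlib 3.10.9). Because the reads carry no molecular identifiers and may repeat a molecule, intervals and the floor of 3 counts (0.127 CPM in iCD8a, 0.106 in CD11b+) cover counting error only. Of 44 lists with 1384 symbols, 17 symbols had no match and 11 were matched through a synonym. List medians use a prior count of 0.5 and members at 1 CPM or more in either library, and lists share members. Members and lists were chosen with earlier results of these data known. Named are the gate genes and markers, per direction the 30 protein-coding genes whose interval's near end was largest (50 CPM or more in the higher library) and the 20 with the largest CPM difference, 15 level genes (within 1.25-fold), and list members as examples, and not every gene of these sets is printed. On simulated Poisson counts of 10821 genes with 200 changed in this comparison, the rule found 0% of genes made to differ 2-fold, 50% of those at 4-fold and 100% of those at either 8-fold or 16-fold, and counted 0 unchanged genes. These rates follow largely from the rule's own 4-fold cut, and the simulation holds no spread between animals.

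Alternatives were other scalings (no factor, DESeq2 size factors, upper quartile, TMM of the pair alone), CPM minimums of 1, 20 and none, folds of 2 and 8, thinning to the smaller total, protein-coding genes only, removal of the 50 most abundant genes of either library, of mitochondrially encoded genes or of the epithelial lists, a prior count of 2, and removal of the immediate early list. Values of some single genes are not reported here.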

Additional observations from a re-analysis of the deposited data

Results flagged for a closer look

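Part of each file lay outside the comparison. Non-unique alignments came to 26.9% of all counts for iCD8a and 30.5% for CD11b+, and reads outside any gene to 9.31% and 8.56%. These reads cannot be assigned to genes from the files.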

How the results depend on the processing

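The number of genes higher in iCD8a was 663 and the number lower 1447. Under the 4 other scalings, thinning, protein-coding genes only and the 4 removals of gene sets, both stayed within 1.5 times of these values. The removals kept the TMM factors found with all genes. With a minimum of 20 CPM they were 438 and 936, with no minimum 1036 and 2454, and with a fold of 2 they were 1803 and 2226. A fold of 8 left 273 higher, and a minimum of 1 CPM gave 2182 lower. Without a scaling factor all log2 ratios rose by 0.24, with 820 genes higher and 1312 lower. Of the 106 ranked or marker genes with counts in both libraries, 3 changed direction, each without a scaling factor: the CD11b+ level over the iCD8a level went from 1.03 to 0.87 for Junb, from 1.02 to 0.87 for Jund and from 1.10 to 0.93 for Klf6. Most of the others were chosen for large differences, which such shifts cannot turn. Of 264 recomputed list medians, 4 changed sign: cell cycle (0.00078) and nuclear oxidative phosphorylation (0.12) without a scaling factor, cholesterol and lipid (−0.015) with DESeq2 size factors, and stroma, endothelium and red cells (2.18) with a minimum of 5 CPM for members. The causes of these moves were not tested, apart from the number of genes that each minimum admits.

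With 1 library per population there is no replicate to leave out, and the spread between animals is unknown. No paired analysis was possible because each population has 1 library. Genes counted at 1 to 3 reads in iCD8a, such as Trem1, have wide intervals, and genes at 0 have lower bounds only.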
